A study of Rattus norvegicus with 32 samples.

Results

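Microtubule-associated proteins bind the microtubules of neurons, stabilise or bundle them, or follow their growing ends. The group described here comprised 10 genes, taken by symbol from the 17216 gene rows of the count files: the MAP genes Map1a, Map1b, Map2, Map4 and Map6, the tau gene Mapt, the doublecortin gene Dcx with its relative Dclk1, and the end-binding protein genes Mapre1 and Mapre2. All 10 were present and all 10 passed the filter on low counts. Poly-A RNA was measured in 16 soma and 16 dendrite libraries from 16 single neurons, so that each neuron gave a pair of libraries. The neurons were wildtype Sprague Dawley rat hippocampal cells, labelled pyramidal, taken at embryonic day 18 and kept for 15 days in culture. Soma and dendrites of a cell were drawn off separately with a micropipette, and the RNA was amplified in 3 rounds. More than 1 culture and day were used, and no neuron is tied to its own here.

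Neurons sort these proteins by compartment. MAP2 protein fills the cell body and dendrites, and its mRNA is a classical example of a transcript that travels into dendrites, while tau protein is concentrated in axons. MAP1B and doublecortin are typical of growing neurons, and MAP1A becomes prominent as dendrites mature. MAP2, MAP4 and tau share a related set of microtubule-binding repeats. The comparison of dendrites with soma asks whether the mRNAs are divided between the compartments as well, and the comparison between neurons asks how alike single cells are.

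Soma libraries held between 878125 and 24721811 gene counts, with a median of 15629500, and dendrite libraries between 229149 and 24439768, with a median of 8842539. Levels are given as CPM, a gene's count scaled to the gene counts of its library. Gene lengths were not used, so levels are compared between libraries for 1 gene at a time and not between genes. The pyramidal marker Neurod6, a transcription factor gene, had 10 or more counts in 16 soma and 16 dendrite libraries, but Slc17a7, a vesicular glutamate transporter gene, did so in 5 soma and 2 dendrite libraries, and its relative Slc17a6 in 11 and 8. Of the 8 inhibitory markers, Gad1, which encodes an enzyme of GABA synthesis, was the most often found, in 7 soma and 11 dendrite libraries, while Gad2, a second such enzyme gene, was found in 2 and 2. Summed, the inhibitory markers had a median of 60.9 CPM in soma and 59.2 CPM in dendrites, with a highest library of 13307 CPM and 3136 CPM. All libraries carry the pyramidal label. Summed astrocyte markers had a median of 253 CPM in soma (range 45.6 to 700.4) and 436 CPM in dendrites (24.8 to 2346), with 4 of 10 markers tested and all 4 at a positive log2 fold change of dendrites over soma, and their part in the results was not tested. Among them Apoe, a lipid carrier gene, was at 4.16 ± 1.55 (edgeR unadjusted p = 0.0127, adjusted p = 0.999). Endothelial, mural and fibroblast markers summed to a median of 8.22 CPM in soma and 56.6 CPM in dendrites, up to 795 CPM, with both tested genes positive. Median sums in soma and dendrites were 6.56 and 10.6 CPM for oligodendrocytes, 26.1 and 34.9 CPM for their precursors, 58.5 and 40.6 CPM for dividing progenitors and 14421 and 17300 CPM for 4 general neuron genes. The 6 microglia markers summed to at most 0.0666 CPM in soma and 0.375 CPM in dendrites.

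Soma and dendrites of a number were weakly alike in general, and some libraries stood apart. Only 7 of 16 soma and 5 of 16 dendrite libraries matched their own neuron best. With profiles of the 4916 tested genes centred within compartments, the soma of neuron 7 was most like the dendrites of neuron 9 (Spearman rho = 0.259, against 0.0907 with its own dendrites), and the soma of neuron 9 was most like the dendrites of neuron 7 (0.165, against 0.0699). Dendrites 9 were also the best match of soma 8 (0.231, against 0.193), soma 14 (0.114, against 0.0099) and soma 22 (0.0913, against 0.0363). Soma 7 was also the best match of dendrites 11 (0.158). A best match to dendrites 9 or to soma 7 was thus not particular to neurons 7 and 9. The dendrites of neuron 20 resembled those of neuron 13 (0.499) and had a TMM scaling factor, the correction edgeR applies to a library total, of 0.16, where the median over libraries was 1.03. Neuron 25 gave the shallowest soma and the shallowest dendrite library. Some results are therefore also given without neuron 7, 8, 9, 20 or 25, alone or together.

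The upstream sequences below are shown for Map1b, which was present in every library, and for Map2 and Dcx, which ranged from abundant to nearly absent. Each is the 250 bases before an annotated start, from RefSeq on GRCr8, in the direction of the gene. Capitals mark a match to any of 3 motifs on either strand: TATAAA, called the TATA box, GGGCGG, called the GC box, and CCAAT, called the CCAAT box.
Map1b, chr2:32644472-32644721, minus strand: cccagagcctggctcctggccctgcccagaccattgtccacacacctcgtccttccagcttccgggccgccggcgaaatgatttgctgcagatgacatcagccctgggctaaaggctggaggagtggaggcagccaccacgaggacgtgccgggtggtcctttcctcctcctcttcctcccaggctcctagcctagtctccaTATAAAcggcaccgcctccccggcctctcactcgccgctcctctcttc
Map2, chr9:75346440-75346689, plus strand: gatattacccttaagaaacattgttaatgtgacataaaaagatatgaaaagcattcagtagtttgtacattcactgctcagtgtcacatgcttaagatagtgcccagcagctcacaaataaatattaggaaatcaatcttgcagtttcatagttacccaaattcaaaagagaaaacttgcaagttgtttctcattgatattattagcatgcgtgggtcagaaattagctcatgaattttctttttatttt
Dcx, chrX:112304162-112304411, minus strand: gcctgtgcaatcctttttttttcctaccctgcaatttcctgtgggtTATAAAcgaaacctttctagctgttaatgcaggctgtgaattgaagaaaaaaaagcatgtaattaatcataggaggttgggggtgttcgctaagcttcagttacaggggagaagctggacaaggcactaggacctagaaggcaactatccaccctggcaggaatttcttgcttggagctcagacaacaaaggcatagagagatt

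The Map1b window held TATAAA 48 bases before the start and the Dcx window held it 204 bases before the start. The Map2 window held none of the 3 motifs. Of 33469 promoters of the same length, 12.9% held TATAAA on either strand, 30.5% a GC box and 34.0% a CCAAT box. The G and C content was 63.6% for Map1b, 32% for Map2 and 44.0% for Dcx, against a median of 51.2%, and the windows held 13, 1 and 2 CpG pairs against a median of 5. Windows were found for 7 of the 10 genes, and which start these neurons used was not tested; those of Map2 and Dcx lie inside the genes' listed spans. The counts rest on build rn6, so genes and windows were joined by symbol and not by position.

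Map1b, Mapt, Dclk1, Mapre1 and Mapre2 had at least 10 counts in all 32 libraries. Dcx and Map4 each missed that count in 1 dendrite library, while Map1a, Map6 and Map2 had 0 counts in some libraries. Over the 320 pairs of a gene and a library, 299 reached 10 counts and 8 were at 0. In every gene the soma and dendrite ranges overlapped. The share of all tested genes with such an overlap was not computed, so the overlap is not read as a trait of the 10.

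**Figure D1:**
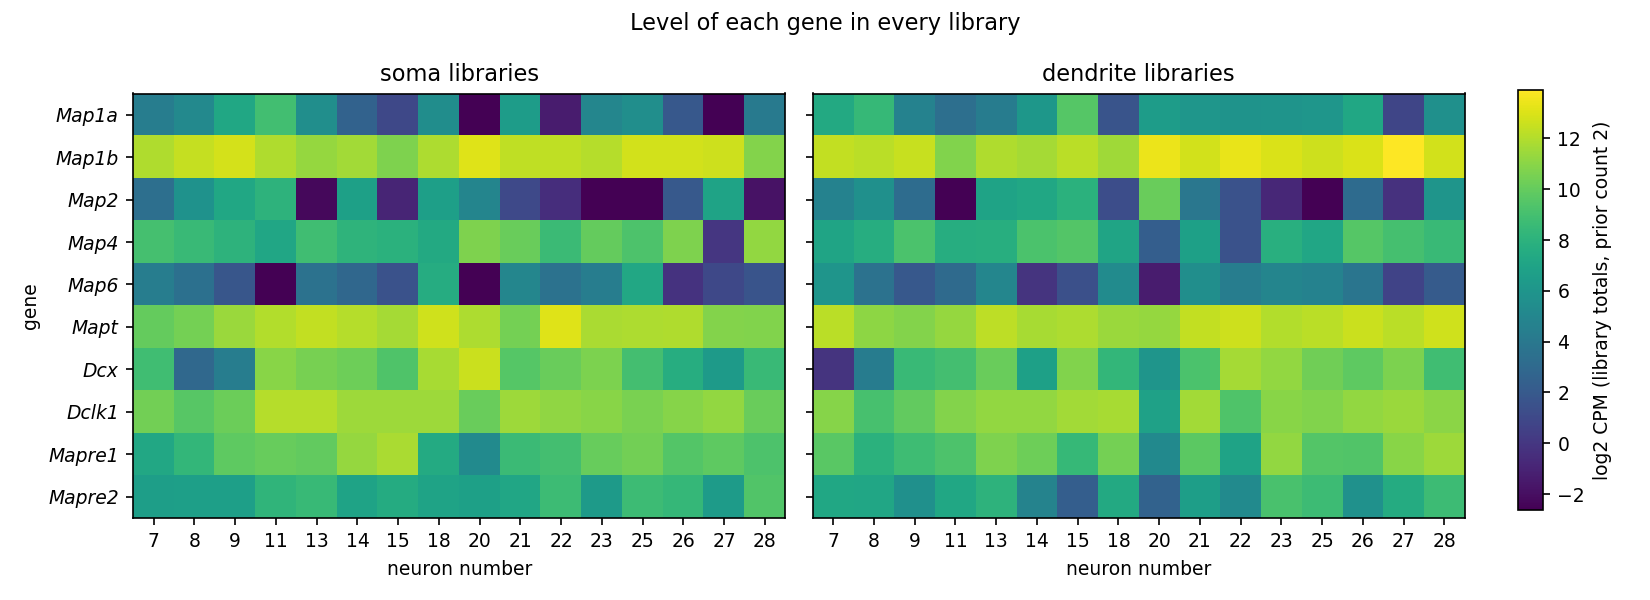
Log2 CPM, scaled by library totals with a prior count of 2, of the 10 genes (rows) in the soma library (left) and the dendrite library (right) of each neuron (columns, by neuron number). The rows of Map1b, Mapt and Dclk1 are nearly even, apart from Dclk1 in the dendrites of neuron 20, whereas Map2 alternates between high and dark cells in both compartments, with 0 counts in 2 soma and 2 dendrite libraries.

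Map1b encodes a large microtubule protein of growing neurites that is cut into a heavy and a light chain. Its level in soma ran from 1646 CPM in neuron 15 over a median of 4677 CPM to 8828 CPM in neuron 20. In dendrites it ran from 1744 CPM in neuron 11 over a median of 6183 CPM to 15342 CPM in neuron 27. The highest soma library thus stood 5.36-fold above the lowest, and the highest dendrite library 8.80-fold. On log2 CPM with TMM factors, dendrites were higher in 9 of 16 neurons, and neurons are counted on that scale for every gene below. By CPM from library totals, some neurons change direction. The log2 fold change, dendrites over soma, was 0.46 ± 0.26 (SE, n = 16 neurons, edgeR quasi-likelihood adjusted p = 0.999). The 95% interval ran from -0.07 to 0.99, so a shift of more than 1.98-fold in either direction lay outside it.

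Mapt encodes tau, the microtubule protein best known from axons. In soma its level ran from 1021 CPM in neuron 7 over a median of 3654 CPM to 8812 CPM in neuron 22. In dendrites it ran from 1815 CPM in neuron 9 over 4383 CPM to 6647 CPM in neuron 28. The dendrite libraries spanned a 3.66-fold range, the narrowest of the 10 genes in either compartment. With TMM factors, dendrites were higher in 12 of 16 neurons. Of these, neurons 9, 13 and 20 were lower in dendrites by CPM, at 0.667-fold, 0.920-fold and 0.675-fold of the soma. The log2 fold change was 0.40 ± 0.27 (95% interval -0.16 to 0.96, edgeR adjusted p = 0.999). Tau mRNA was therefore measured in every dendrite library and a difference from the soma was not detectable.

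Map2 behaved differently from Map1b and Mapt. In soma it ran from 0 CPM over a median of 7.05 CPM to 265 CPM, in neuron 11. In dendrites it ran from 0 CPM over 12.1 CPM to 1140 CPM, in neuron 20, and the next highest dendrite library, neuron 15, had 243 CPM. Libraries with high Map2 thus occurred in both compartments, and so did libraries without it.

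Within a neuron, Map2 was often far higher in 1 compartment than in the other. Large differences of this kind were common among the tested genes. The SD over neurons of the log2 CPM difference, dendrites minus soma, was 5.72 for Map2, beside a median of 4.42 over all tested genes. It was 0.97 for Map1b and 0.91 for Mapt. Neuron 11 had 3543 Map2 counts in the soma and 0 among 21226819 gene counts in the dendrites, where 0 counts allow up to 0.141 CPM (the level of 3 counts, counting error only). Neuron 13 had 1 count in the soma and 2392 in the dendrites, neuron 15 had 9 and 4683, and neuron 27 had 2106 in the soma and 16 in the dendrites. Neuron 25, with shallow libraries, had 0 counts in both, which allows up to 3.42 CPM in soma and 13.1 CPM in dendrites.

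To set detection at 1 depth, libraries were thinned to 1071293 counts, which left 15 neurons. At full depth, Map2 had 10 or more counts in both compartments of 9 neurons, in the soma alone of 2, in the dendrites alone of 3 and in neither of 2. Thinned, it was found at that count in both compartments of 5 neurons, in the soma alone of 3, in the dendrites alone of 4 and in neither of 3. The log2 fold change of Map2 was 1.45 ± 1.62 (SE, n = 16 neurons, 10 of them higher in dendrites; edgeR adjusted p = 0.999). Its 95% interval ran from -1.88 to 4.77, between 0.272-fold and 27.3-fold, so the data bound the Map2 ratio far less tightly than that of Map1b. It was 2.59 without neurons 7, 8 and 9, 3.15 with no replicate block, 1.14 without neurons 20 and 25, and 0.97 without neuron 13.

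**Figure D2:**
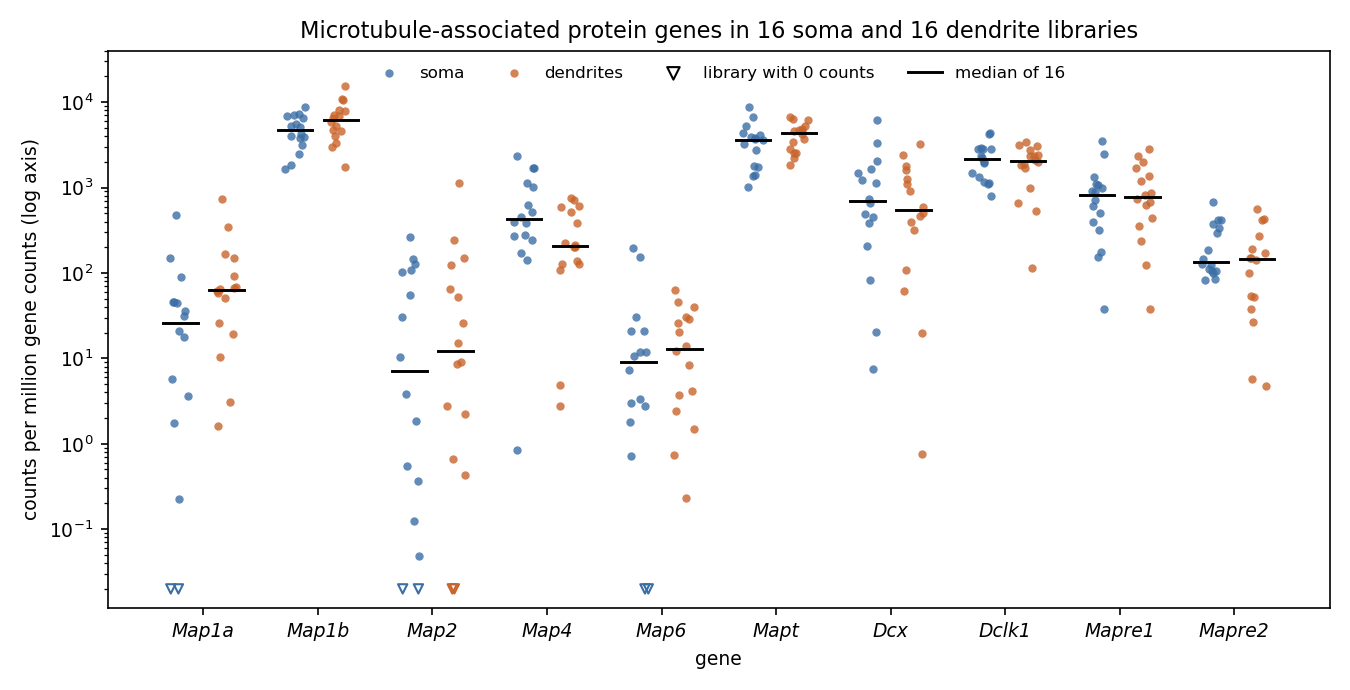
CPM on a log axis (vertical) of each gene (horizontal) in 16 soma and 16 dendrite libraries, 1 point per library, with medians as black bars and libraries with 0 counts as open triangles at the bottom of the axis. Map1b, Mapt and Dclk1 form tight columns, with 1 low Dclk1 dendrite library at 113 CPM, and the median of Map2 is 7.05 CPM in soma and 12.1 CPM in dendrites with libraries from 0 to 1140 CPM.

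Map1a encodes the MAP1 protein of maturing dendrites. In soma it ran from 0 CPM, in neurons 20 and 27, over a median of 26.1 CPM to 484 CPM in neuron 11. In dendrites it ran from 1.60 CPM in neuron 27 over 63.7 CPM to 733 CPM in neuron 15, and no dendrite library was at 0. Map1a reached 10 counts in 13 soma and 16 dendrite libraries, and at 1 depth in 9 and 12 of 15. The log2 fold change was 2.08 ± 1.47 (95% interval -0.94 to 5.10, edgeR adjusted p = 0.999), the largest of the 10 genes, and 11 of 16 neurons had more in the dendrites. Without neuron 20 the fold change was 1.76. Neuron 15 had 43 Map1a counts in the soma and 14121 in the dendrites, and neuron 11 had 6465 in the soma and 218 in the dendrites.

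Map4, which encodes a relative of MAP2 and tau found in many cell types, had the lowest log2 fold change of the 10 genes. In soma it ran from 0.842 CPM in neuron 27 over a median of 426 CPM to 2371 CPM in neuron 28. In dendrites it ran from 2.80 CPM in neuron 22 over 208 CPM to 746 CPM in neuron 26. Dendrites were higher in 5 of 16 neurons, and the log2 fold change was -1.28 ± 0.85 (95% interval -3.03 to 0.46, edgeR adjusted p = 0.999). Neuron 27 went the other way, with 14 counts in the soma and 12617 in the dendrites, and without it the fold change was -1.57. It was -0.97 without neuron 20, -0.85 without neurons 20 and 25, and -0.44 with limma-voom.

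Map6 encodes a protein that protects microtubules from disassembly in the cold. It ran from 0 CPM over a median of 9.02 CPM to 195 CPM in soma and from 0.232 CPM over 13.01 CPM to 63.9 CPM in dendrites. At full depth it reached 10 counts in both compartments of 10 neurons, in the soma alone of 3, in the dendrites alone of 2 and in neither of 1. At 1 depth it did so in 6 soma and 8 dendrite libraries of 15 neurons. There, the 6 neurons with Map6 in the soma all had it in the dendrites, which did not hold at full depth. The log2 fold change was 0.51 ± 1.05 (95% interval -1.64 to 2.66, edgeR adjusted p = 0.999), and it turned to -0.70 with no replicate block, that is, without pairing by neuron. Leaving out neuron 26 gave 0.23 and leaving out neuron 25 gave 0.83.

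Dcx encodes doublecortin, a marker of young and migrating neurons. In soma it ran from 7.54 CPM in neuron 8 over a median of 697 CPM to 6199 CPM in neuron 20, and in dendrites from 0.751 CPM in neuron 7 over 547 CPM to 3243 CPM in neuron 22. Dendrites were higher in 8 of 16 neurons, and the log2 fold change was -0.09 ± 0.81 (95% interval -1.75 to 1.57, edgeR adjusted p = 0.999). Without neuron 7 it was 0.27 and without neuron 9 it was -0.43, and it was also positive without neuron 11, 14, 18 or 20, so its direction rested on single neurons.

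The 2 lowest soma and the 2 lowest dendrite libraries of Dcx all came from neurons 7, 8 and 9. The soma of neuron 8 had 7.54 CPM and its dendrites 19.6 CPM. The soma of neuron 7 had 456 CPM and its dendrites 0.751 CPM, while the soma of neuron 9 had 20.5 CPM and its dendrites 390 CPM. The soma of neuron 7 was thus nearer to the dendrites of neuron 9, and the soma of neuron 9 to the dendrites of neuron 7. The same held for Map1a, with 20.8 CPM in soma 7 beside 26.02 CPM in dendrites 9. Its level was 149 CPM in soma 9 beside 168 CPM in dendrites 7. Map2, Map4 and Mapre1 went the same way in CPM, but Map1b did not. For Mapt and Dclk1, soma 7 was nearer to dendrites 9, but soma 9 was nearer to its own dendrites. For Map1b, soma 7 had 3935 CPM, nearer to its own dendrites (5318 CPM) than to dendrites 9 (5846 CPM). Soma 9, at 7230 CPM, was also nearer to its own. For Map6, soma 9 had 3.32 CPM, beside 3.72 CPM in its own dendrites and 63.9 CPM in dendrites 7. Soma 7 had 20.9 CPM of Map6, nearer to dendrites 9 by difference and to its own dendrites by ratio. The same split held for Mapre2 in soma 7, while soma 9 was nearer to dendrites 7 in Mapre2. Whether labels were exchanged was not tested, and values here keep the labels as given.

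Dclk1 encodes a kinase that carries doublecortin domains. In soma it ran from 788 CPM in neuron 8 over a median of 2132 CPM to 4330 CPM in neuron 11, and in dendrites from 113 CPM in neuron 20 over 2054 CPM to 3423 CPM in neuron 18. In CPM by library totals the next lowest dendrite library, neuron 8, had 537 CPM, but with TMM factors the dendrites of neuron 20, at a log2 CPM of 9.47, stood above those of neuron 8, at 9.10. Dendrites were higher in 8 of 16 neurons, with a log2 fold change of -0.28 ± 0.28 (95% interval -0.87 to 0.30, edgeR adjusted p = 0.999). It was -0.0964 without neuron 11, -0.16 without neuron 20 and -0.18 without neuron 22.

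Mapre1 encodes EB1, which tracks growing microtubule ends, and Mapre2 encodes its relative EB2. RefSeq lists the pseudogenes Mapre1-ps1 and Mapre1-ps2, and how reads of such copies were counted is not known here, so Mapre1 counts are uncertain to that extent. Mapre1 ran from 38.3 CPM over a median of 808 CPM to 3539 CPM in soma and from 37.9 CPM over 770 CPM to 2825 CPM in dendrites. Neuron 20 was lowest in both compartments by library totals, whereas with TMM factors the dendrites of neuron 22 were lower (log2 CPM 6.70, against 7.89). The log2 fold change of Mapre1 was 0.21 ± 0.48 (edgeR adjusted p = 0.999; 8 of 16 neurons were higher in dendrites), and it was -0.02 without neuron 18.

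Mapre2 had a narrower range in soma than in dendrites. It ran from 82.5 CPM over a median of 136 CPM to 669 CPM in soma and from 4.78 CPM, in neuron 15, over 146 CPM to 559 CPM in dendrites. Its log2 fold change was -0.89 ± 0.73 (95% interval -2.39 to 0.61, edgeR adjusted p = 0.999), and 6 of 16 neurons had more in the dendrites.

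Across the 10 genes, 6 had a positive and 4 a negative log2 fold change, with a median of 0.31, beside a median of 0.13 over the 4916 tested genes. Genes with an adjusted p under 0.05 numbered 0 of 10, where the share called over all tested genes was 0%. At an unadjusted p under 0.05 they numbered 0 of 10 with edgeR and 0 of 10 with the exact sign-flip permutation test, where 129 tested genes (2.62%) fell under it with edgeR and 264 with sign-flips. Other methods gave unadjusted p under 0.05 for some of the 10: limma-voom for Map1b (p = 0.0015, 226 genes under 0.05), DESeq2 for Map1a (p = 0.0081) and Map4 (p = 0.0413, 1014 genes), and edgeR with no replicate block for Map2 (p = 0.0219), Map1b (p = 0.0229) and Map4 (p = 0.0400, 336 genes). Limma-voom and the sign-flip test adjusted over all genes also called 0%, and the DESeq2 Wald test called 8.2% of the tested genes but 0 of the 10, with Map1a nearest at an adjusted p of 0.0800. A fold change that misses the threshold does not show equal levels, and the median SE of 1.53 over all tested genes, against 0.77 over the 10, sets what could be seen.

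**Figure D3:**
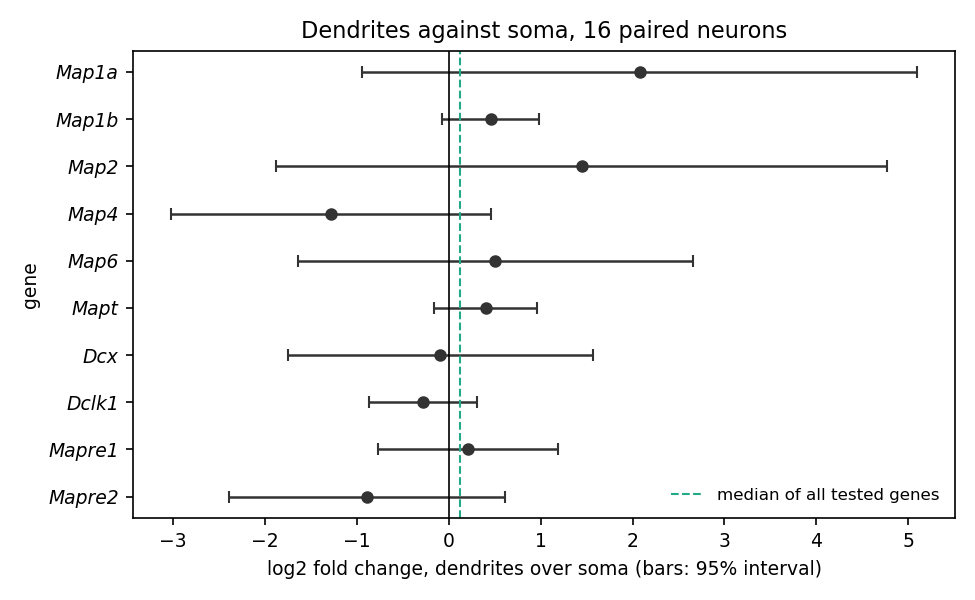
Log2 fold change of dendrites over soma (horizontal) for each gene (vertical), as points with 95% intervals from the edgeR fit over 16 paired neurons; the dashed line is the median of all tested genes, 0.13. All 10 intervals cross 0, those of Map1b, Mapt and Dclk1 being narrow and those of Map1a and Map2 wide.

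Ratios of 2 of these genes within a library were compared between compartments for 3 pairs. The ratio is of CPM without length and, for libraries near 0 counts, rests on depth and the prior count, so only its difference between compartments is read. The log2 ratio of Map2 to Mapt, a dendritic against an axonal protein, was -8.40 ± 3.82 in dendrites and -8.90 ± 4.14 in soma (SD, n = 16), a paired difference of 0.50 ± 5.39 that was positive in 9 of 16 neurons. Its exact sign-flip permutation p was 0.713 (two-sided, adjusted over the 3 ratios 0.713). Leaving out neuron 13 gave a difference of -0.07, leaving out neuron 15 gave -0.04 and leaving out neuron 11 gave 1.17. Without neuron 20 the difference was 0.15. With neurons 7, 8 and 9 left out it was 1.002, and with libraries thinned to 1 depth it was 0.0641.

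The log2 ratio of Map1a to Map1b, the later against the earlier MAP1 protein, was -6.90 ± 2.37 in dendrites and -8.62 ± 3.79 in soma, a paired difference of 1.72 ± 3.95 (positive in 10 neurons; p = 0.102 by exact sign-flips, adjusted p = 0.305). Thinned to 1 depth it was 1.03, and without neuron 20 it was 1.21. The log2 ratio of Dcx to Map2 was 4.95 ± 5.62 in dendrites and 6.29 ± 5.19 in soma, a paired difference of -1.34 ± 6.98 (positive in 7 neurons; p = 0.449 by exact sign-flips, adjusted p = 0.673). Without neuron 20 it was -0.64. None of the 3 differences had an adjusted p under 0.05 by sign-flips, which does not show equal ratios. The SD given with each difference is the spread between neurons and not the error of the mean.

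The genes differed widely in how evenly they were measured over the libraries. Each neuron gave 1 library per compartment, so differences between cells cannot be told apart from those of harvest and amplification. On the scale of log2 CPM with TMM factors, the SD over 16 soma libraries was 0.79 for Dclk1, 0.81 for Map1b, 0.85 for Mapt and 0.93 for Mapre2, against a median of 3.46 over all tested genes. Of all tested genes, 98.8% had a larger SD in soma than Dclk1 and 98.4% a larger one than Mapt. In dendrites the SD was 0.74 for Mapt, with 99.7% of tested genes above it, 0.89 for Dclk1 and 1.26 for Map1b, against a median of 3.22. With library totals in place of TMM factors, the SD of Map1b in dendrites was 0.78 and that of Dclk1 was 1.27. The shares of tested genes given here and for Map2 below were not matched on level. Dclk1, Mapt and Map1b were counted in every library, whereas Map2 had no counts in some. How far the SD followed the counts of a gene was not tested.

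Map2 lay at the other end. Its SD of log2 CPM was 4.05 in soma and 4.14 in dendrites, and 20.7% and 7.77% of tested genes had a larger one. Map1a had 3.42 in soma and 2.37 in dendrites, Map6 2.87 and 1.81, Map4 2.52 and 2.11, and Dcx 2.63 and 3.02. The median over the 10 genes was 1.997 in soma and 1.77 in dendrites. Without neurons 7, 8, 9, 20 and 25 it was 1.29 in soma and 1.68 in dendrites.

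**Figure D4:**
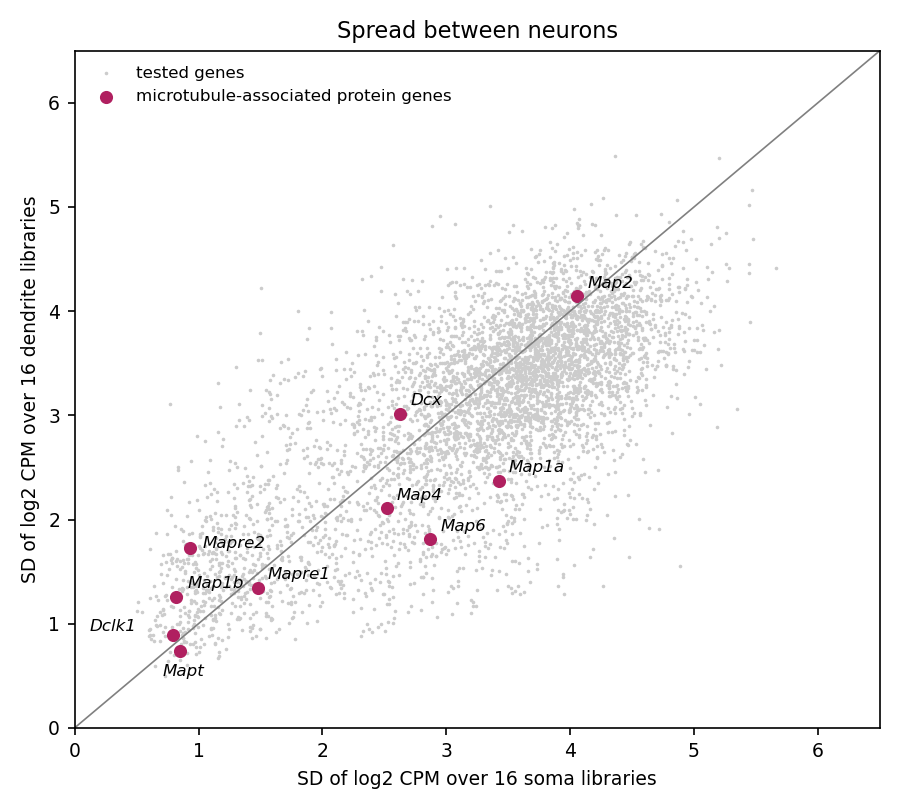
SD of log2 CPM over the 16 soma libraries (horizontal) and over the 16 dendrite libraries (vertical) for all 4916 tested genes (grey) and the 10 microtubule-associated protein genes (named). Mapt, Dclk1 and Map1b lie in the corner of low spread in both compartments, and Map2, at 4.05 and 4.14, lies high in the main cloud; the line marks equal SD.

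A neuron high in 1 compartment was also high in the other for only some of these genes. Over the 16 neurons, soma and dendrite levels had a Spearman rho of 0.74 for Map6 (Pearson r = 0.63), 0.66 for Dclk1 (0.63) and 0.64 for Map1b (0.64). Over all tested genes the median rho was 0.07, with an upper quartile of 0.25 and a highest 5% above 0.51. This background was not matched on level. These values are descriptions over single neurons, whose pairs of libraries share a cell, a culture and a day that cannot be told apart.

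Leaving out the 2 neurons farthest from the median soma level, r was 0.64 for Map6, 0.62 for Dclk1 and 0.55 for Map1b. Without neurons 7, 8, 9, 20 and 25, rho was 0.72 for Map6, 0.63 for Map1b and 0.28 for Dclk1, so the value of Dclk1 rested on those neurons. In contrast, Map2 had a rho of -0.10, Map1a -0.35, Map4 -0.30, Dcx 0.09 and Mapre2 -0.03. Mapt stood at 0.36 and Mapre1 at 0.35; with library totals these were 0.06 and 0.20, and without neurons 7, 8, 9, 20 and 25 they were -0.22 and 0.09. Under the same omission Map2 stood at -0.38, and Dcx was at -0.29 without neurons 7, 8 and 9.

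**Figure D5:**
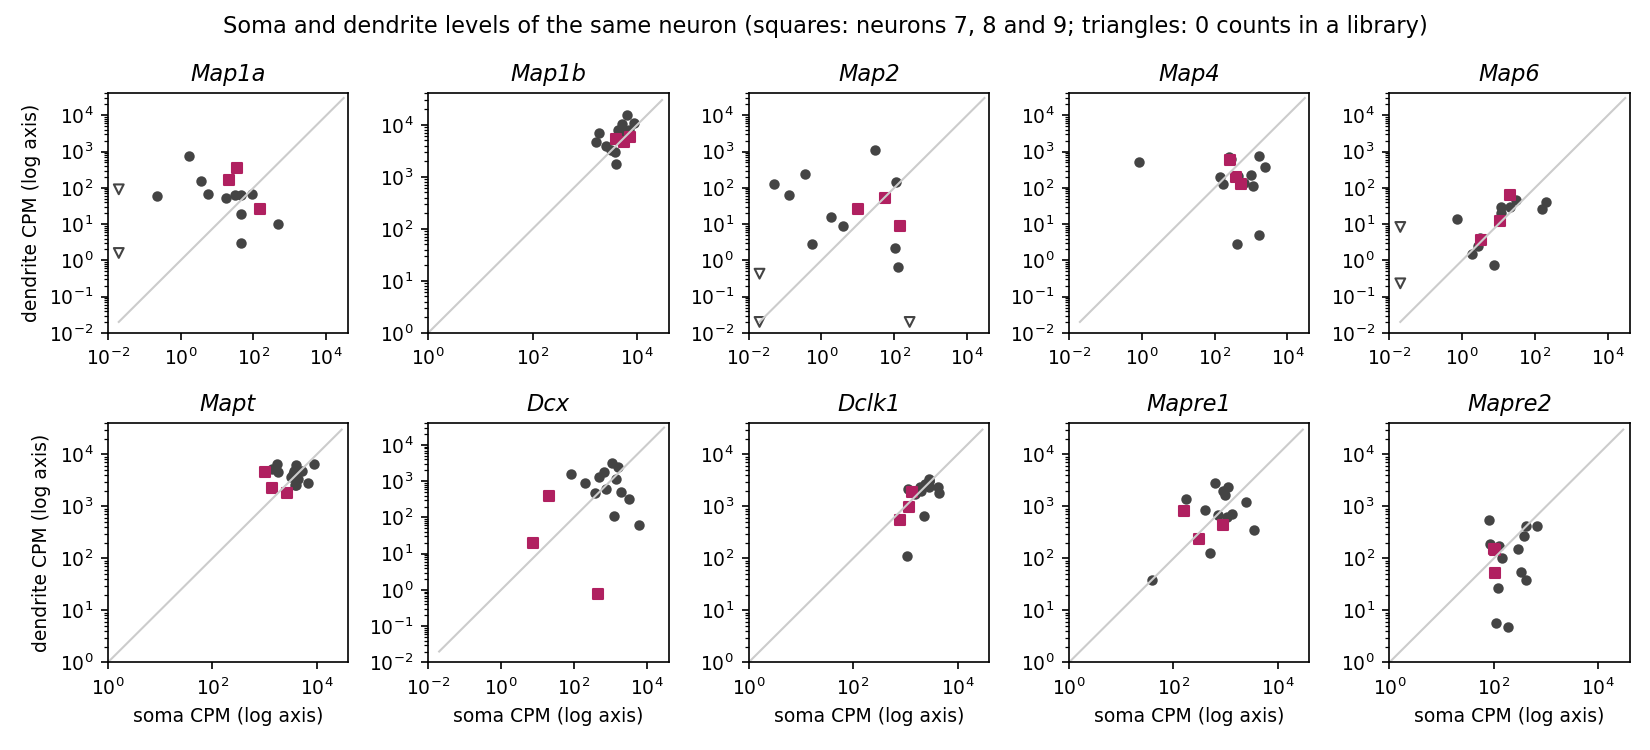
CPM in the soma (horizontal, log axis) and in the dendrites (vertical, log axis) of the same neuron, 1 panel per gene with its own axis range, and 1 point per neuron; the line marks equal levels, squares mark neurons 7, 8 and 9, and open triangles mark a library with 0 counts, placed at the edge. Points of Map1b, Mapt and Dclk1 cluster by the line, while those of Map2 scatter from high soma with low dendrites to the reverse.

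Whether levels followed the depth of a library was not tested, and rho is given for some genes as a description. Over 16 libraries, rho between log2 CPM and total gene counts was -0.46 for Map1b in soma and -0.34 in dendrites, 0.41 and 0.51 for Dclk1, and -0.48 and 0.51 for Map4. For Map2 it was 0.06 in soma and 0.08 in dendrites. Depth and neuron share the same libraries, and the part of depth in the soma and dendrite values was not tested.

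Among themselves, the genes moved together little. Of the 45 pairs, the highest rho over the 32 libraries, centred within compartments, was 0.60 for Mapt and Dcx, at 0.72 in soma and 0.47 in dendrites, or 0.50 without neurons 7, 8 and 9. Dclk1 and Mapre1 followed at 0.50, and Mapre1 and Mapre2 at 0.43. Map1b and Mapt had 0.72 in dendrites and 0.04 in soma. The lowest was -0.45, for Map2 and Mapre2.

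By the same measure, the tested genes most like each member over the 32 libraries were named, 2 per gene. They were Rps26 (0.76) and Gabarapl2 (0.72) for Map1b, Rpl15 (0.76) and Hn1 (0.70) for Mapt, and Dstn (0.71) and Cfl2 (0.68) for Dclk1. Rps26 and Rpl15 encode ribosomal proteins, and Dstn and Cfl2 encode actin-severing proteins of the cofilin family. For Map4 they were Pja2 (0.72) and Tceb1 (0.64), for Map6 LOC690911 and Ggh (0.69 each), and for Map1a Atp5i (0.67) and Lsamp (0.61). For Mapre1 they were Tbca (0.66), a tubulin-folding cofactor gene, and Eif3g (0.61), for Dcx Large (0.61) and Mapt (0.60), for Mapre2 Usp11 (0.60) and Map4k4 (0.59), and for Map2 Smpd1 (0.59) and Hsbp1 (0.58). These are the highest of 4916 values each, and the libraries share depth.

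Other genes of the microtubule pathway gave no call either. Of 11 tested genes for other structural MAPs, 5 had a positive and 6 a negative log2 fold change (median -0.09), and 0 passed in either direction. Map9, which encodes a microtubule protein of spindles and cilia, was at 3.61 ± 1.53, with 12 of 16 neurons higher in dendrites and an unadjusted edgeR p of 0.0259 (adjusted p = 0.999). It had 10 or more counts in 6 soma libraries and in 10 of dendrites. Of 15 plus-end and minus-end protein genes, 7 were positive and 8 negative (median -0.41), with Tacc1 at 2.69 ± 1.64.

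Of 6 tubulin-modifying enzyme genes, 5 were positive and 1 negative (median 0.23), with Tpgs1, a subunit gene of the tubulin polyglutamylase complex, at 2.58 ± 1.79. Of 14 genes for kinases that phosphorylate MAPs or tau, 9 were positive and 5 negative (median 0.27), with Mark1 at 3.06 ± 1.69. In the edgeR fit 0 genes of these lists were called and 1, Map9, had an unadjusted p under 0.05, beside 0% and 2.62% over all tested genes.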

How the data were processed

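The authors deposited 1 table of raw whole-number counts per library, with 17216 gene rows and 92 spike-in rows. Library sizes and gene tests used no spike-in row. The submitters' processing notes name build rn6. RNA went through 3 rounds of antisense RNA amplification, per the labels' protocols. They mention no molecular identifiers, and floors cover counting error only. The aligner, annotation and strand handling are not given in the sources used here. The series text states that same-numbered soma and dendrites are 1 cell, so the neuron was a block; for centred profiles, Spearman's rho averaged 0.0678 within a neuron and -0.000544 across neurons, with 4 of 16 over 0.1.

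R 4.3.3 and edgeR 4.0.16 were used: filterByExpr (minimum count 10), TMM, glmQLFit (robust) and glmQLFTest on 4916 genes holding 91.8% to 97.2% of counts, with Benjamini-Hochberg adjustment at 0.05. SEs were derived from the fold change and its F statistic. Log2 CPM used a prior count of 2 and TMM factors, and neurons higher in dendrites were counted on this scale. Ratios were tested by exact two-sided sign-flips. The edgeR fit was checked on simulated counts and the sign-flip test on simulated normal differences. The simulated counts had 1 fixed spread for all genes and no difference between neurons. The check therefore does not show what could be detected in these data. The alternatives included DESeq2 1.42.0 and limma 3.58.1. Named genes were the members, the 2 genes most like each, and, per further list, genes with an unadjusted p under 0.05 (at most 3) or else the smallest p. The result of 1 further list is not reported here. The members, lists and rules were chosen with earlier results of these data known.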

Additional observations from a re-analysis of the deposited data

Results flagged for a closer look

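The spike-in rows, which enter no main comparison here, were detected in each of the 32 libraries. Their share of all counts had a median of 0.482% among them. Soma 8 was lowest with 0.0605% (exact binomial 95% bounds 0.0592% and 0.0618%, above what a count of 0 allows), and the dendrites of neuron 20 were highest with 4.33%. That dendrite library also had the TMM factor of 0.16 and the highest Map2 level, 1140 CPM.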

How the results depend on the processing

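With no filter on low counts 1 of 13879 genes was called, and with the DESeq2 Wald test 403 of 4916, in place of 0; 0 were called with no replicate block and in each of 16 fits on 15 neurons. Pairing by neuron changed no call. Of the 10 genes' 268 fold changes under alternatives, 258 kept their direction and 10 reversed, and 0 passed the threshold. Dcx turned to 0.0152 with library totals, 0.13 without neurons 20 and 25, and 0.12 with spike-in totals, and Map6 to -0.70 with no replicate block; the cause was not tested. Leaving out 1 neuron at a time, fold changes ran from -0.43 to 0.27 for Dcx and from -0.0248 to 0.48 for Mapre1, and differences in ratio from -0.0748 to 1.17 for Map2 to Mapt, from 1.21 to 2.13 for Map1a to Map1b and from -2.20 to -0.64 for Dcx to Map2. Over the same omissions the other ranges were 1.68 to 2.60 for Map1a, 0.39 to 0.68 for Map1b, 0.97 to 2.09 for Map2, -1.57 to -0.97 for Map4, 0.23 to 0.83 for Map6, 0.26 to 0.60 for Mapt, -0.39 to -0.10 for Dclk1 and -1.10 to -0.61 for Mapre2. The median soma against dendrite rho of the 10 genes was 0.22, and -0.13 without neurons 7, 8, 9, 20 and 25. Alternatives with spike-in totals, without several neurons at once other than 7, 8 and 9, and with library totals for rho and SD were chosen after seeing the data. Under a filter of 10 counts in 28 of 32 libraries, Map2 and Map6 gave no value. Depth limits the genes near 0 counts.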
